A study of Mus musculus with 16 samples.

Results

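The olfactory epithelium of the mouse is divided into zones, and 8 genes whose expression is known to follow that division were described here: Nqo1, Acsm4 and Robo2 for the dorsal zone and Ncam2, Nrp2, Nfia, Nfib and Nfix for the ventral zones. They were chosen by name and make up 8 of the 19505 genes measured. Each was read by 1 probe set. Signal was measured on microarrays in olfactory neurons sorted by an activity reporter, S100a5-tauGFP, a tau-fused green fluorescent protein driven by S100a5, a gene that olfactory neurons express when active. The mice, 24 of both sexes and 7 to 12 weeks old, were housed singly for 40 h with clean air supplied at 3.1 L/min. From 26 h onward, 10 s of octanoic acid, or of filtered air as the vehicle, was delivered every 20 min. Dissociated mucosa of 3 mice made 1 pool, and each pool was sorted into GFP+ and GFP- cells. This gave 4 groups of 4 arrays: GFP+ and GFP- cells from 4 clean-air pools, and GFP+ and GFP- cells from 4 octanoic acid pools. All groups carry the reporter, the sort takes in any cell type that makes or lacks GFP, and each array averages 3 animals. The whole mucosa was dissociated, so position in the epithelium was lost and no array measures a zone directly.

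Zonal identity is known to set both which odorant receptor a neuron may choose and where its axon ends in the olfactory bulb. Dorsal neurons are marked by the quinone reductase Nqo1 and the medium-chain acyl-CoA synthetase Acsm4, and their axons carry Robo2, a receptor for Slit proteins. Ventral neurons carry the adhesion molecule Ncam2 and the semaphorin receptor Nrp2, and the transcription factors Nfia, Nfib and Nfix are known to be needed for the choice of ventral receptors. The comparison of GFP+ with GFP- cells asks whether the reporter-positive neurons carry more of one zone's genes, and the comparison of octanoic acid with clean air asks whether the odor shifts that balance.

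Over the 8 pools, Ncam2 was 1.28-fold higher in GFP+ than in GFP- cells, Nfia was 1.32-fold lower and Robo2 was 1.30-fold lower. The other 5 genes did not pass the test. Thus 3 of 8 zonal genes passed, where 26.7% of all 19505 genes did (13.1% higher and 13.6% lower in GFP+ cells). The genes that passed did not follow the zones: of 5 ventral genes 1 was higher and 1 lower, and of 3 dorsal genes 1 was lower. No gene passed in any comparison of octanoic acid with clean air. The 3 differences were small, and none of the calls remained with arrays centred on the odorant receptors, without the pairing by pool, or without a pair of pools that stood apart.

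Sequence upstream of the start sites is shown for the 3 genes that passed and for Acsm4, the dorsal enzyme whose window held a match for EBF, a factor family of olfactory neurons. The windows are the 250 bases before a RefSeq transcript start in GRCm38.p6, written 5′ to 3′ on the gene's strand, with motif matches in capitals. They lie at chr16:81200447-81200696 on the + strand for Ncam2, chr4:97581693-97581942 on the + strand for Nfia, chr16:75092771-75093020 on the - strand for Robo2 and chr7:119689776-119690025 on the + strand for Acsm4. For Robo2, which has 3 windows in the table, the one with a match is printed.
Ncam2: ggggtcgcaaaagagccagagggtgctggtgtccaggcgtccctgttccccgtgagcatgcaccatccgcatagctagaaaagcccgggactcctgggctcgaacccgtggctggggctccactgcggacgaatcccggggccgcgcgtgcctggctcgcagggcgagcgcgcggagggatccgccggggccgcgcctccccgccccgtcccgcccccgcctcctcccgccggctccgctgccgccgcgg
Nfia: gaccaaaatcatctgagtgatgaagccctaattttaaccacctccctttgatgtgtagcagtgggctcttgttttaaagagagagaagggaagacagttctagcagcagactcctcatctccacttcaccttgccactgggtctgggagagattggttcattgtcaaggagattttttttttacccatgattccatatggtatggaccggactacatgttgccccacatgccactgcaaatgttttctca
Robo2: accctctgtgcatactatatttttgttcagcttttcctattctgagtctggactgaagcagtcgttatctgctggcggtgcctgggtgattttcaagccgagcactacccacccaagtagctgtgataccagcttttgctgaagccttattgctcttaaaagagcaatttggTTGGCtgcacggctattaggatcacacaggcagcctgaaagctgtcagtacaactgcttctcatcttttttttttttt
Acsm4: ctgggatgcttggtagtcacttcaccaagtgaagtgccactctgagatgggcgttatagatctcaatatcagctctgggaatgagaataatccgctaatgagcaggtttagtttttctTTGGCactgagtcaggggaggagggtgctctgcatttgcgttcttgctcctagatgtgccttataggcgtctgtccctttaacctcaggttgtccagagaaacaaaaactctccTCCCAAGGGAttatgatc
The search covered both strands for the NFI half-site TTGGC, the NFI palindrome (TTGGC and its reverse complement with 5 bases between), the antioxidant response element core TGACNNNGC, the EBF site (TCCC and GGGA with 2 bases between), the homeodomain core TAATTA and the TATA box TATAAA. The half-site is part of the palindrome. In Acsm4 the capitals mark TTGGC from 132 to 128 bases upstream of the start and TCCCAAGGGA from 18 to 9 bases upstream. In Robo2 they mark TTGGC from 78 to 74 bases upstream. The Ncam2 and Nfia windows held none of these letters. Of 32851 windows over all genes, 0.0365% held the palindrome, 41.5% the half-site, 10.2% the antioxidant core, 0.779% the EBF letters, 4.84% the homeodomain core and 12.4% the TATA letters. The 7 zonal genes in the table had 12 windows. Of these, 5 held the half-site and none the palindrome. The antioxidant core was in none of the 12, the Nqo1 window included. Nqo1 is a known target of the oxidative-stress factor NRF2, and sites farther than 250 bases upstream were not searched. The remaining letters were each in 1 of the 12: the EBF site upstream of Acsm4, the homeodomain core upstream of Nfix and the TATA box upstream of Nqo1, from 29 to 24 bases before its start. Base composition differed widely, with 75.2% GC and 32 CpG pairs upstream of Ncam2 against 44.8% GC and 1 CpG pair upstream of Nfia. The median over all windows was 52.4% GC and 6 CpG pairs. Nfib is named only.

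Signals are the authors' log2 values, on which a difference of 1 is a doubling, and differences are GFP+ minus GFP- within a pool. The median of 5222 negative-control probe sets, 6.20, was taken as background. Every zonal gene was at least 4.10 above that on each array. Their 95th percentile, 10.41, was exceeded on 16 of 16 arrays by 7 of the genes and on 14 by Nrp2. Omp, the marker of mature olfactory neurons, averaged 18.83 in GFP+ and 18.69 in GFP- cells with clean air, and 18.84 and 18.67 with octanoic acid. S100a5, the gene that drives the reporter GFP used for the sort, was 1.42 ± 0.39 (SD, n = 8 pools) higher in GFP+ cells. The GFP- samples also held other cells. All 11 leukocyte markers measured were lower in GFP+ cells, and their summed log2 signal was 9.88 to 11.9 on GFP+ and 16.35 to 18.7 on GFP- arrays. Immature neuron markers were lower in GFP+ cells in 6 of 9 cases, progenitor markers in 5 of 6, microvillous and tuft cell markers in 6 of 6 (median -2.27) and sustentacular markers in 5 of 10 (median -0.84). Of 5 respiratory ciliated cell markers 3 were higher in GFP+ cells (median 0.42), as were 3 of 10 mature neuron markers (median 0.21). Leaving out 1 pool at a time, between 1 and 3 markers of either list were higher. With arrays centred on the odorant receptors, 2 ciliated cell and 0 mature neuron markers were higher. The 5 horizontal basal cell and 5 ensheathing glia markers averaged under background in each group. The part of these cells in the differences below was not tested. Fewer cells of a type and less RNA per cell cannot be told apart in these samples.

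**Figure D1:**
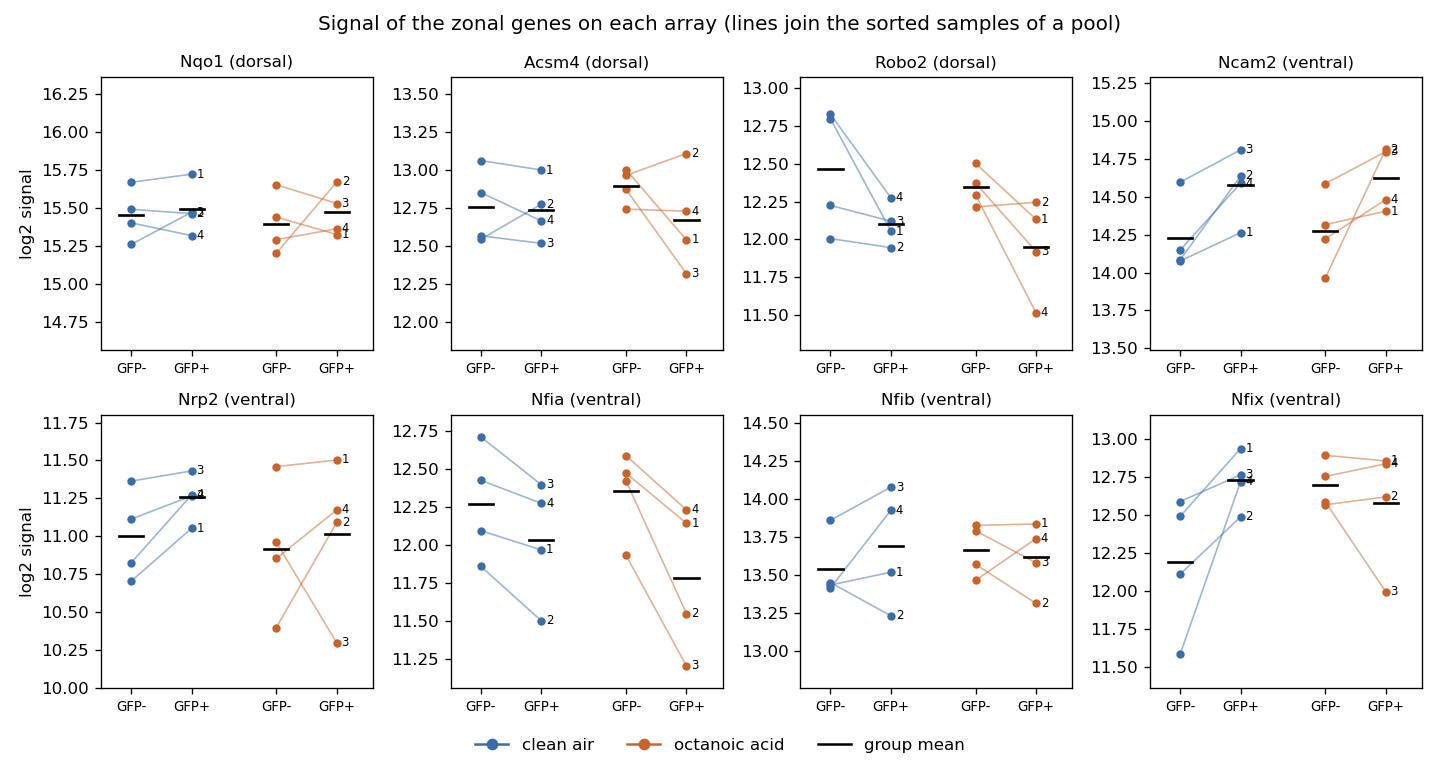
Log2 signal (vertical axes, each with its own range) of the 8 zonal genes on the 16 arrays, GFP- beside GFP+ cells, for clean air and octanoic acid. Points are arrays, lines join the samples of 1 pool (numbered) and bars are group means of 4 arrays. Ncam2 rises and Nfia falls from GFP- to GFP+ in all 8 pools, while GFP+ and GFP- values overlap for each gene within each treatment.

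Of the dorsal enzymes, Nqo1, which reduces quinones, did not differ between GFP+ and GFP- cells beyond the spread between pools. In clean air, Nqo1 read 15.72, 15.46, 15.47 and 15.32 in GFP+ cells of pools 1 to 4 and 15.67, 15.49, 15.26 and 15.40 in GFP- cells. With octanoic acid, Nqo1 read 15.32, 15.67, 15.53 and 15.36 in GFP+ and 15.44, 15.20, 15.65 and 15.29 in GFP- cells. The groups overlapped, and GFP+ cells were higher in 4 of 8 pools. The mean difference was 0.06 ± 0.20 (SD, n = 8), with a 95% interval from -0.18 to 0.29 and an adjusted p of 0.718 (limma, Benjamini-Hochberg). The interval allows up to 1.22-fold higher and 1.13-fold lower levels in GFP+ cells.

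Acsm4, which activates medium-chain fatty acids of the kind that octanoic acid belongs to, also overlapped between the sorts. In clean air, Acsm4 read 13.00, 12.77, 12.52 and 12.66 in GFP+ and 13.06, 12.54, 12.57 and 12.85 in GFP- cells. With octanoic acid, Acsm4 read 12.54, 13.11, 12.31 and 12.73 in GFP+ and 13.00, 12.96, 12.87 and 12.74 in GFP- cells. The octanoic acid GFP+ arrays were the most spread, with both the highest value of all 16 (pool 2) and the lowest (pool 3). GFP+ cells were lower in 6 of 8 pools, by -0.12 ± 0.27 (SD, n = 8) on average, with an adjusted p of 0.461 (limma). The 95% interval ran from -0.37 to 0.13. Without octanoic acid pool 2 the mean was -0.18, and without pool 3 it was -0.06.

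Robo2, the Slit receptor of dorsal axons, was lower in GFP+ cells in 7 of 8 pools. In clean air, Robo2 read 12.06, 11.95, 12.12 and 12.27 in GFP+ and 12.80, 12.01, 12.22 and 12.83 in GFP- cells. With octanoic acid, Robo2 read 12.13, 12.25, 11.92 and 11.52 in GFP+ and 12.50, 12.21, 12.37 and 12.29 in GFP- cells. Pool 2 of the octanoic acid mice was the exception, with a difference of 0.03, and clean-air pool 1 and octanoic acid pool 4 had the largest drops, -0.74 and -0.78. The mean difference was -0.38 ± 0.31 (SD, n = 8), with a 95% interval from -0.65 to -0.10 and an adjusted p of 0.0449 (limma). Leaving out 1 pool at a time, the difference ran from -0.45 to -0.31 and adjusted p from 0.0242 to 0.123 (limma). The call held only without octanoic acid pool 2 or without clean-air pool 2.

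Among the ventral genes, Ncam2, an adhesion molecule of ventral axons, was higher in GFP+ cells in 8 of 8 pools. In clean air, Ncam2 read 14.26, 14.64, 14.81 and 14.59 in GFP+ and 14.08, 14.08, 14.60 and 14.15 in GFP- cells. With octanoic acid, Ncam2 read 14.40, 14.81, 14.80 and 14.48 in GFP+ and 14.32, 13.96, 14.59 and 14.22 in GFP- cells. The groups overlapped, while each pool moved the same way, from 0.09 in octanoic acid pool 1 to 0.85 in octanoic acid pool 2. The mean difference was 0.35 ± 0.25 (SD, n = 8), with a 95% interval from 0.10 to 0.60 and an adjusted p of 0.0426 (limma). Leaving out 1 pool at a time, the difference ran from 0.27 to 0.39 and adjusted p from 0.0455 to 0.110 (limma). The call held only without octanoic acid pool 1 or pool 3.

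Nrp2, the receptor through which Sema3f repels axons, was higher in GFP+ cells in 7 of 8 pools but did not pass the test. In clean air, Nrp2 read 11.05, 11.27, 11.43 and 11.27 in GFP+ and 10.70, 11.11, 11.36 and 10.83 in GFP- cells. With octanoic acid, Nrp2 read 11.50, 11.09, 10.30 and 11.17 in GFP+ and 11.46, 10.40, 10.96 and 10.85 in GFP- cells. Octanoic acid pool 3 went the other way, by -0.66, and pool 2 rose by 0.69. The mean difference was 0.18 ± 0.40 (SD, n = 8), with an adjusted p of 0.379 (limma) and a 95% interval from -0.14 to 0.49. Without octanoic acid pool 3 the mean was 0.30, with an adjusted p of 0.0841, and without pool 2 it was 0.08, with an adjusted p of 0.696 (limma). The GFP+ array of octanoic acid pool 3 held the lowest of 16 values for Acsm4, Nrp2 and Nfia. Its summed log2 signal of 10 sustentacular cell markers was 16.95, against 13.5 to 15.4 on the other GFP+ arrays. The part of those cells in these values was not tested.

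Nfia, the NFI factor that differed most, was lower in GFP+ cells in 8 of 8 pools. In clean air, Nfia read 11.97, 11.50, 12.40 and 12.28 in GFP+ and 12.10, 11.86, 12.71 and 12.43 in GFP- cells. With octanoic acid, Nfia read 12.14, 11.55, 11.20 and 12.23 in GFP+ and 12.47, 12.42, 11.93 and 12.59 in GFP- cells. Clean-air pool 3 was high and clean-air pool 2 low in both sorts, and every pool fell, by 0.13 to 0.87 on the log2 scale. The mean difference was -0.41 ± 0.26 (SD, n = 8), with a 95% interval from -0.64 to -0.17 and an adjusted p of 0.0146 (limma). The call held in 8 of 8 fits that left out 1 pool, with adjusted p from 0.0186 to 0.0452.

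Nfib did not differ beyond the spread between pools. In clean air, Nfib read 13.52, 13.23, 14.08 and 13.93 in GFP+ and 13.43, 13.45, 13.86 and 13.41 in GFP- cells. With octanoic acid, Nfib read 13.84, 13.31, 13.58 and 13.74 in GFP+ and 13.83, 13.57, 13.79 and 13.46 in GFP- cells. GFP+ cells were higher in 5 of 8 pools, and the mean difference was 0.05 ± 0.28 (SD, n = 8), with an adjusted p of 0.765 (limma) and a 95% interval from -0.20 to 0.30. Nfix varied most from pool to pool. In clean air, Nfix read 12.94, 12.49, 12.76 and 12.72 in GFP+ and 12.49, 12.11, 12.59 and 11.58 in GFP- cells. With octanoic acid, Nfix read 12.86, 12.62, 11.99 and 12.84 in GFP+ and 12.89, 12.57, 12.59 and 12.75 in GFP- cells. The lowest of these 16 values was that of the GFP- cells of clean-air pool 4, whose GFP+ cells were 1.14 higher. Over all pools the difference was 0.21 ± 0.49 (SD, n = 8), with an adjusted p of 0.270 (limma) and a 95% interval from -0.08 to 0.50. Without clean-air pool 4 it was 0.10.

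**Figure D2:**
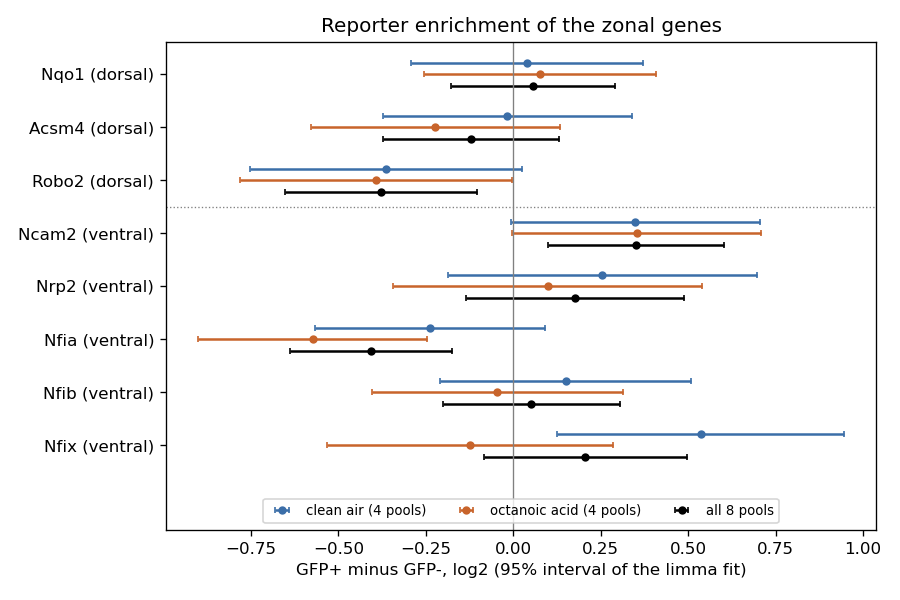
Difference in log2 signal between GFP+ and GFP- cells (horizontal axis) of each zonal gene, as the mean (point) with the 95% interval of the limma fit (bar), for the 4 clean-air pools, the 4 octanoic acid pools and all 8. Over all 8 pools the intervals of Robo2 (-0.65 to -0.10), Ncam2 (0.10 to 0.60) and Nfia (-0.64 to -0.17) lie clear of 0, and the dorsal and ventral genes do not part into opposite sides.

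Taken by treatment, none of the 8 zonal genes passed with clean air, where 15.4% of all genes did (5.83% higher and 9.58% lower). The largest difference there was that of Nfix, 0.54 ± 0.42 (SD, n = 4) and higher in 4 of 4 pools, with an adjusted p of 0.0816 (limma). Without clean-air pool 4 it was 0.33. Nfia was lower in 4 of 4 pools, by -0.24 ± 0.12 (SD, n = 4), with an adjusted p of 0.342 (limma). With octanoic acid 1 of 8 passed, where 17.2% of all genes did (6.26% higher and 10.9% lower). This was Nfia, -0.57 ± 0.27 (SD, n = 4) and lower in 4 of 4 pools, with an adjusted p of 0.0208 (limma). Without octanoic acid pool 2 the adjusted p was 0.0724, and without pool 3 it was 0.0728. Ncam2 differed by 0.35 in either treatment, with adjusted p of 0.193 with clean air and 0.169 with octanoic acid (limma). The latter difference was 0.19 without octanoic acid pool 2. Robo2 differed by -0.36 with clean air and -0.39 with octanoic acid, with adjusted p of 0.214 and 0.162 (limma). Without clean-air pool 1 the clean-air difference was -0.24. These calls moved with the scaling. With arrays centred on their medians, Ncam2 passed with clean air, at 0.62 (adjusted p = 0.0134, limma), as did Nfix, at 0.81 (adjusted p = 0.00855, limma). With octanoic acid, Ncam2 then passed at 0.66 (adjusted p = 0.00873, limma), while Nfia no longer did, at -0.27 (adjusted p = 0.159, limma). On that scale 7653 of all 19505 genes passed with clean air and 9506 with octanoic acid. Centring on the odorant receptors also ended the call on Nfia, at -0.50 (adjusted p = 0.207, limma).

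The odor comparison asked whether octanoic acid changed these differences. By limma no gene passed, 0% of 19505, with 871 genes at an unadjusted p under 0.05 and Nfix the only zonal gene among them. The zonal genes ranged from -0.66 for Nfix to 0.04 for Nqo1 (octanoic acid minus clean air, in the difference between sorts). For Nfix the 95% interval ran from -1.24 to -0.08, the unadjusted p was 0.0294 and the adjusted p 0.940. All 4 clean-air pools had more Nfix in GFP+ cells, by 0.18 to 1.14, while the octanoic acid pools lay between -0.59 and 0.08. Without clean-air pool 4 the change was -0.46. For Nfia, lower in GFP+ cells under both treatments, the change was -0.34, with a 95% interval from -0.80 to 0.13 and an adjusted p of 0.940.

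Within GFP+ cells the genes differed between octanoic acid and clean air by -0.25 (Nfia) to 0.05 (Ncam2). No gene passed, 0% of 19505, with 716 at an unadjusted p under 0.05 (limma) and no zonal gene among them. Nfia averaged 11.78 ± 0.49 with octanoic acid and 12.04 ± 0.40 with clean air (SD, n = 4), with an adjusted p of 0.955 (limma). Nrp2 averaged 11.02 ± 0.51 and 11.26 ± 0.16 (SD, n = 4), a difference of -0.24, and the groups overlapped. Without octanoic acid pool 3 these differences were -0.06 for Nfia and 0.00 for Nrp2. Within GFP- cells the differences ran from -0.12 (Robo2) to 0.51 (Nfix). Again no gene passed, 0% of 19505, with 741 at an unadjusted p under 0.05 (limma). Nfix, at an unadjusted p of 0.0432 and an adjusted p of 0.985, was the only zonal gene among these 741. Nfix averaged 12.70 ± 0.15 in GFP- cells with octanoic acid and 12.19 ± 0.46 with clean air (SD, n = 4). Without clean-air pool 4 its difference was 0.30. Acsm4 averaged 12.90 ± 0.12 and 12.76 ± 0.25 (SD, n = 4) in GFP- cells, a difference of 0.14 with an adjusted p of 0.985 (limma). It was 0.07 without clean-air pool 2 and 0.24 without clean-air pool 1. These designs leave wide limits. The 95% intervals of the 8 genes reached up to 0.62 on either side of the change in the difference between sorts, up to 0.60 within GFP+ cells and up to 0.52 within GFP- cells.

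Since the scaling of whole arrays can decide which small differences pass, they were read on several scales. The median gene differed by 0.12 as deposited. Relative to that median, Nfia stood at -0.53, Robo2 at -0.50, Acsm4 at -0.24 and Ncam2 at 0.23, and the other 4 genes lay between -0.07 and 0.08. These relative values are the same under any shift of whole arrays. With the arrays centred on their own medians the median gene was at 0.41. Ncam2 was then at 0.64, Nrp2 at 0.46, Nfix at 0.49, Nqo1 at 0.35 and Nfib at 0.34, and these 5 passed (limma). Nfia at -0.12 and Robo2 at -0.09 did not. On that scale 14197 of all 19505 genes passed, 12174 of them higher. Acsm4 changed sign, from -0.12 to 0.17, and passed on neither scale. With arrays centred on the median of 1091 odorant receptor genes no zonal gene passed, with adjusted p of 0.0777 for Nfia, 0.101 for Robo2 and 0.164 for Ncam2 (limma). Quantile normalization kept the 3 calls. Comparing the sorts without regard to the pool ended them, with adjusted p of 0.119 for Nfia, 0.0594 for Robo2 and 0.0531 for Ncam2 (limma). Octanoic acid pool 3 and clean-air pool 4 had the highest sustentacular marker sums of the GFP+ and of the GFP- arrays, 16.95 and 16.7. Without this pair, adjusted p was 0.0510 for Nfia, 0.150 for Robo2 and 0.0980 for Ncam2 (limma).

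**Figure D3:**
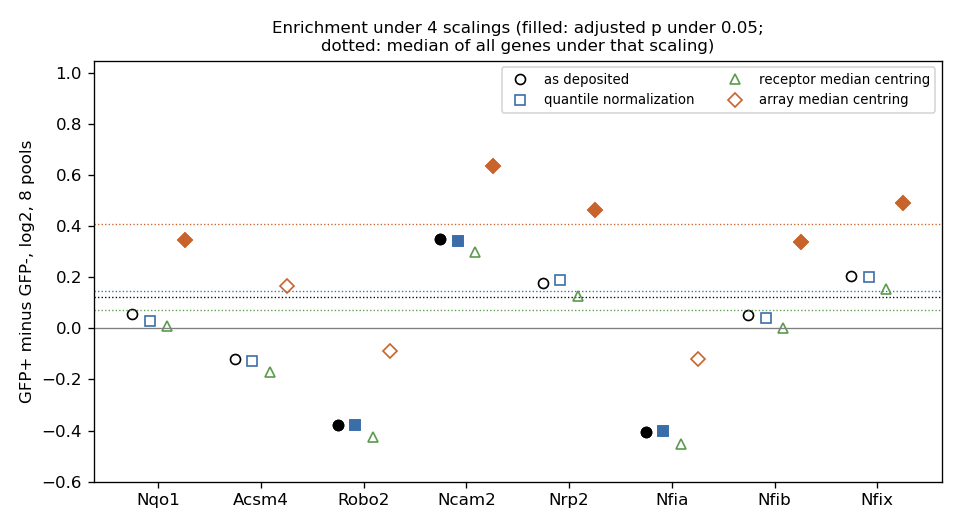
Difference in log2 signal between GFP+ and GFP- cells over 8 pools (vertical axis) of each zonal gene under 4 scalings of the arrays, with filled symbols where the limma adjusted p is under 0.05. Dotted lines give the median of all genes under each scaling, from 0.07 with receptor centring to 0.41 with array centring. With array or receptor centring the genes keep their order while all shift together, and 5 pass with array centring but none with receptor centring. Of all 19505 genes, 14197 pass with array centring and 3362 with receptor centring.

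The differences of the 8 genes were compared from pool to pool. None of the 28 pairs of genes gave an adjusted p under 0.05 (exact permutation tests, 2-sided, adjusted over 28 pairs). All 3 pairs of dorsal genes correlated positively, with a median r of 0.49, as did 8 of 10 ventral pairs, with a median of 0.43. Mixed pairs had a median of 0.04, with 8 of 15 positive. Over all 28 pairs 19 were positive, with a median of 0.32. Pairs drawn from all genes were not examined, so these counts have no background to be read against. Without the 2 pools farthest from the median of the first gene named, Nqo1 with Robo2 turned to -0.54. In that check Nqo1 with Acsm4 was at 0.70 and Acsm4 with Robo2 at 0.65. The pairs with the highest r were Nfia with Nfib, at 0.72 (exact permutation p = 0.0462, adjusted 0.344), and Acsm4 with Nrp2, at 0.70 (exact permutation p = 0.0485, adjusted 0.344). For Nfia and Nfib, Spearman's rho was 0.74 (exact permutation p = 0.0458, adjusted 0.321) and r within treatments was 0.68. Without the 2 pools farthest from the median of Nfia it was 0.46. For Acsm4 and Nrp2, rho was 0.50 (exact permutation p = 0.216, adjusted 0.504) and r was 0.69 within treatments. Without the 2 pools farthest from the median of Acsm4 it was 0.00, so this relation rests on those pools.

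Levels of a gene in the GFP+ and GFP- cells of 1 pool were also compared, since both come from the same 3 mice. For Nfia they went together: r was 0.80 over 8 pools (exact permutation p = 0.0219, adjusted over 8 genes 0.175) and rho was 0.88 (exact permutation p = 0.00724, adjusted 0.0579). Within treatments r was 0.90, and without the 2 pools farthest from the median it was 0.49. Neither adjusted p passed. For the other 7 genes r ran from 0.09 for Nfix to 0.43 for Nfib, and the median over 11655 genes above background was 0.23.

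Genes with the most similar signal over the 16 arrays were found among 11313 genes. These correlations describe arrays that share pools and a common signal scale, and no test was made. Nfix had the closest followers, Ccdc6 at r = 0.97, Plbd2 at 0.95 and Atmin at 0.94. Nfia was followed by Zfp710 at 0.90, P2ry12 at 0.87 and Clmn at 0.86. Of these, Zfp710 and P2ry12 were themselves lower in GFP+ cells, by -0.71 (adjusted p = 0.00125, limma) and -0.98 (adjusted p = 0.00151, limma). P2ry12 is a purinergic receptor best known from microglia. Robo2 was followed by Dhrs4 at 0.89, Ralgapa2 at 0.84 and Snrnp40 at 0.80. Acsm4 was followed by the odorant receptor Olfr419 at 0.87, Cyb561d2 at 0.83 and Pdhx at 0.78. Ncam2 was followed by Umodl1 at 0.83 and by the odorant receptors Olfr828 and Olfr366, both at 0.82. Both receptors were higher in GFP+ cells, by 1.07 and 1.10 (adjusted p = 0.000224 and 0.000628, limma). Nrp2 was followed by Cpped1 and Fdft1, both at 0.87, and Serpini1 at 0.86. Nqo1 was followed by Sdhd at 0.81, Rabl3 at 0.80 and Mettl16 at 0.79. Nfib was followed by Olfr735 at 0.83, Slc27a1 at 0.76 and Fzd7 at 0.75. No zonal gene was among the 3 closest to another.

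Genes that work with the zonal genes were read from lists drawn up by function, over all 8 pools. Among 19 guidance partners of Robo2, Nrp2 and Ncam2, 4 rose and 2 fell, with a median of 0.08 against 0.12 over all genes. The counts of this and the following lists are to be read beside the 13.1% of all genes that rose and the 13.6% that fell. Sema3a, a secreted semaphorin, averaged 7.39 in GFP+ and 8.33 in GFP- cells and fell by 0.94 (adjusted p = 4.31e-05, limma). Plxna3, a co-receptor that neuropilins need to signal, averaged 12.28 and 11.38 and rose by 0.90 (adjusted p = 3.71e-05, limma). Srgap3, which acts downstream of Robo receptors, was counted among those that fell but averaged under background in both sorts. Slit1, a Slit ligand named here for its role, averaged 11.71 and 11.16 and was 0.55 higher (adjusted p = 0.00346, limma). Sema3f, the ligand of Nrp2, averaged 10.18 and 10.11 (adjusted p = 0.725, limma). Sema3a and Sema3f averaged under the 95th percentile of the negative controls, 10.41, in both sorts.

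Of 19 NRF2 targets and regulators, the group that Nqo1 belongs to, 2 rose and 9 fell, with a median of -0.20 against 0.12 over all genes. Osgin1, counted among the 9, averaged under background in both sorts, at 5.02 in GFP+ and 5.51 in GFP- cells. Ftl1, a ferritin chain, averaged 10.87 in GFP+ and 13.76 in GFP- cells, a fall of 2.89 (adjusted p = 1.92e-07, limma). Gsr, glutathione reductase, averaged 11.28 and 13.35, and fell by 2.07 (adjusted p = 4.87e-06, limma). Blvrb, biliverdin reductase B, was under background on all 8 GFP+ arrays and at least 1.83-fold lower there (adjusted p = 0.000124, limma). Leukocyte marker sums were higher on the GFP- arrays, as given above, and the part of leukocytes in these differences was not tested. Nqo1 itself did not pass. Of 11 acyl-CoA synthetases related to Acsm4, 2 rose and 1 fell, with a median of 0.05. Acsl5, a long-chain enzyme, was under background on 8 of 8 GFP+ arrays and at least 4.74-fold lower there (adjusted p = 1.14e-07, limma). The mitochondrial enzymes Acsf3 and Acss1 were 0.60 and 0.59 higher (adjusted p = 0.0160 and 0.00903, limma). Without octanoic acid pool 3 and clean-air pool 4, Acsf3 was 0.45 higher and no longer passed, and comparing the sorts without regard to the pool ended the call on Acss1 (adjusted p = 0.0654, limma). The other 4 Acsm genes measured, Acsm1, Acsm2, Acsm3 and Acsm5, averaged under background in both sorts.

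Among 21 genes of retinoic acid and positional signalling, which pattern the epithelium, 5 rose and 7 fell, with a median of 0.18. With the replicate number as a block 7 rose and 7 fell, and without octanoic acid pool 4 the counts were 3 and 6. In a fit of only the genes above background 13 of them were measured, of which 4 rose and 6 fell. Aldh1a3, counted among the 5, averaged under background in both sorts, at 5.89 in GFP+ and 5.51 in GFP- cells. Crabp1, a retinoic acid binding protein, was under background on 8 of 8 GFP+ arrays and at least 12.9-fold lower (adjusted p = 2.44e-09, limma). The retinoic acid receptor Rara averaged 7.39 in GFP+ and 9.19 in GFP- cells and fell by 1.80 (adjusted p = 1.70e-06, limma). Alcam, an adhesion molecule of axons, averaged 8.55 and 10.10 and fell by 1.55 (adjusted p = 0.000329, limma). Among the 5 that rose, Rarb and Cyp26b1 are named after their values were seen. Rarb, another retinoic acid receptor, averaged 10.37 in GFP+ and 9.31 in GFP- cells and rose by 1.06 (adjusted p = 0.000152, limma). Cyp26b1, which breaks down retinoic acid, averaged 7.73 and 6.83 and rose by 0.90 (adjusted p = 0.00167, limma). Rara, Alcam, Rarb and Cyp26b1 averaged under the 95th percentile of the negative controls, 10.41, in both sorts. Of 19 genes around receptor choice, the fourth NFI gene included, 1 rose and 3 fell, with a median of 0.05. Leaving out 1 pool at a time, between 0 and 3 rose, with 3 only without octanoic acid pool 3, and 3 fell each time. The 3 were Lbr, a lamin receptor kept low in mature olfactory neurons, at -2.26 (adjusted p = 1.86e-06, limma), the histone methyltransferase Ezh2 at -0.78 (adjusted p = 0.000483, limma) and the heterochromatin protein Cbx5 at -0.61 (adjusted p = 0.00480, limma). Nfic itself was 0.35 higher, with an adjusted p of 0.117 (limma), and passed with arrays centred on their medians, at 0.64 (adjusted p = 0.00498, limma), with quantile normalization, at 0.53 (adjusted p = 0.0146, limma), and without octanoic acid pool 3, at 0.48 (adjusted p = 0.0253, limma). The immature neuron and progenitor markers fell beside these genes, and their part was not tested.

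Odorant receptors listed by zone differed in both directions, several by more than any zonal gene. Of 10 receptors listed as dorsal, 4 rose and 4 fell, with a median of 0.02. In a fit of only the genes above background 9 of these were measured, of which 3 rose and 4 fell. The list takes in Taar6, and the zone of each listed receptor was not examined here. Among them the trace amine receptor Taar2 was lower in GFP+ cells, at least 7.92-fold (adjusted p = 1.68e-05, limma). Taar9, of the same family, was 5.62-fold higher (adjusted p = 6.63e-07, limma), and Olfr160 was 6.29-fold higher (adjusted p = 9.49e-05, limma). Of 4 receptors mapped to ventral zones, 2 rose and 1 fell, with a median of 0.21. With the replicate number as a block 2 of them fell. The signal of Olfr1507 was lower in GFP+ cells, at least 126-fold (adjusted p = 5.85e-10, limma), while its genomic neighbors Olfr1509 and Olfr1508 were 5.23-fold and 1.79-fold higher (adjusted p = 9.81e-06 and 0.00102, limma). Receptors of 1 family can share probe sequence, so their values are uncertain. With arrays centred on their medians, 12174 of all 19505 genes rose. More list genes rose too, and their counts are to be read beside that share. They were 13 of 19 guidance partners, 8 of 19 NRF2 genes and 6 of 11 acyl-CoA synthetases. Counted in the same way were 13 of 21 retinoic acid genes and 12 of 19 genes around receptor choice. Srgap3 then no longer passed, and Sema3f did, at 0.36 (adjusted p = 0.0345, limma). The genes named as the 3 largest of each list kept their direction under each of the 4 scalings, as did Slit1, Sema3f, Nfic, Rarb and Cyp26b1. This was not examined for the 4 Acsm genes under background.

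**Figure D4:**
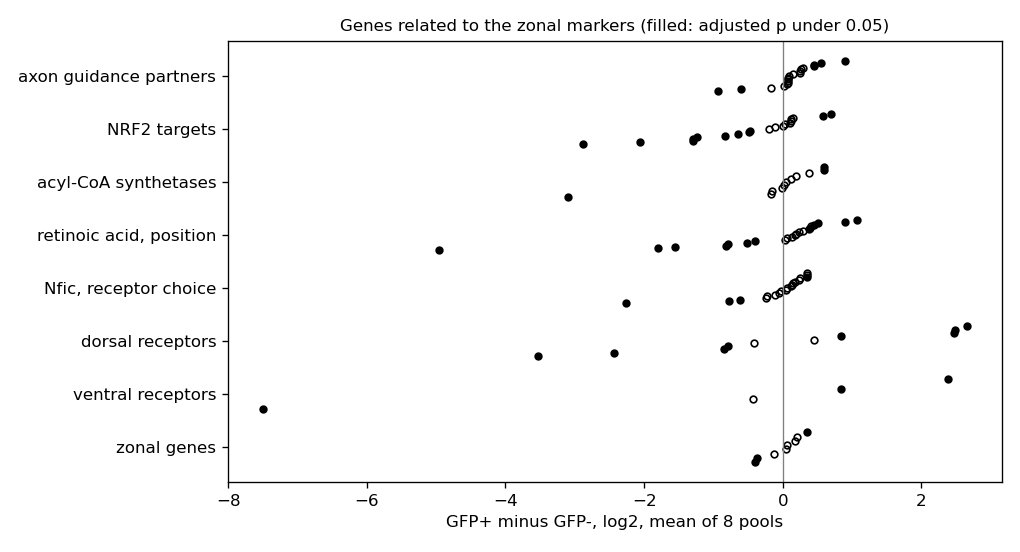
Difference in log2 signal between GFP+ and GFP- cells over 8 pools (horizontal axis) of the genes of each list and of the 8 zonal genes, 1 point per gene, filled where the limma adjusted p is under 0.05. The zonal genes lie between -0.41 and 0.35, while Crabp1 and the receptor Olfr1507 reach -4.96 and -7.49. Crabp1 was under background on 8 and Olfr1507 on 5 of 8 GFP+ arrays, so these points rest on signal under background, and the bounds are 12.9-fold and 126-fold.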

How the data were processed

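Log2 signals of 28846 probe sets on 16 Clariom S arrays, made from 50 to 100 ng of RNA, were deposited by the authors. They were made with Affymetrix Expression Console, per the submitters' processing notes, and its version, summary method and background step are not given in the sources used here. Nothing states the scale, but the range of 2.13 to 19.5 is that of log2 signals. No further normalization was applied. Control probe sets (6640) and those without a name (2634) were left out, and the brightest probe set per gene was kept (19505 genes). Gene names are those of the platform table. No gene positions on the array's build were used, and promoters are RefSeq's (GRCm38.p6).

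GFP+ and GFP- samples of 1 treatment and number come from the same 3 mice, since 24 mice gave 8 pools, so the pool was the unit. Within-pool log2 differences were fitted with limma 3.58.1 in R 4.3.3 (lmFit, eBayes, treatment as covariate, 2-sided), and octanoic acid was compared with clean air within each sort, 4 arrays against 4. Benjamini-Hochberg adjustment took in all genes, and 0.05 was the threshold. A fold against a group under background used the background as floor. The fits were tested on simulated data. Deviations of octanoic acid and clean-air pools of the same number correlated at 0.179, 0.110, 0.237 and 0.100 for differences and at 0.371, 0.100, 0.219 and 0.138 in GFP+ cells, but at 0.408, 0.100, -0.10 and 0.153 in GFP- cells. Per the series text odor and clean air were given at the same time, but numbers are not tied to a day or litter.

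All 8 zonal genes are named, with the 3 largest called differences of each list and the 3 genes closest to each zonal gene by Pearson's r. Slit1, Sema3f, Nfic and the Acsm genes were named for their role, and Rarb and Cyp26b1 after their values were seen. The zonal genes and lists were chosen with earlier results of these data known, and the correlation between sorts was added after seeing the data. Other scalings, filters, blocks and pools left out were tried. Arrays carry no depth, so their number limits the precision. P-values measure the spread between pools.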

Additional observations from a re-analysis of the deposited data

Results flagged for a closer look

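In GFP- cells with clean air, pool 3 stood apart for Ncam2 and for Nfib. Ncam2 read 14.60 there and 14.08 to 14.15 in the other 3 pools, so that the gap took up 0.8608 of the group's range. Nfib read 13.86 there and 13.41 to 13.45 in the others, and the gap took up 0.9224 of the range. With 4 samples the limit is 0.829. These were 2 of 48 groups examined, and chance passes this limit in about 1 in 20 groups. The same pool held the highest Nfia value of all 16 arrays, 12.71, in GFP- cells and the highest Nfib value, 14.08, in GFP+ cells.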

How the results depend on the processing

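Of 506 alternative values for 30 results on single zonal genes, 444 kept their direction and side of the threshold, 29 were no longer past it, 7 newly passed and 26 changed sign, none of these past the threshold. Only the calls on Ncam2, Nfia and Robo2 over all pools and on Nfia with octanoic acid could be lost, and the 29 all belong to them. The other results had no call to lose, so the 444 do not measure how well the calls held. Array median centring gave 14197 genes past the threshold over all pools (12174 higher, 2023 lower, against 2555 and 2651 as deposited), 7653 with clean air (6082 higher, against 1138 of 3006) and 9506 with octanoic acid (7791 higher, against 1221 of 3347). Receptor median centring gave 3362 over all pools (1006 higher), 2354 with clean air (498 higher) and 2265 with octanoic acid (689 higher). Quantile normalization gave 4621 higher of 7181 over all pools, 1813 of 3596 with clean air and 2587 of 4613 with octanoic acid. The cause was not tested. Sign changes under array centring were Acsm4 at 0.17 over all pools, 0.25 with clean air and 0.082 with octanoic acid, Nfia at 0.033 with clean air, and Nfib at 0.26 and Nfix at 0.18 with octanoic acid. With clean air, Nqo1 turned to -0.025 under quantile normalization and -0.13 under receptor centring, and Nfib to -0.024 under the latter. With octanoic acid, Nfib turned to 0.029 under receptor centring. Without octanoic acid pool 3 and clean-air pool 4, Acsm4 turned to 0.040 with clean air, Nfib to 0.0092 and Nfix to 0.033 with octanoic acid, and in GFP+ cells Nfia to 0.019 and Nrp2 to 0.0066. Leaving out 1 pool at a time, the results that changed sign ranged over all pools from -0.0086 to 0.090 for Nqo1 and from -0.0089 to 0.11 for Nfib. With clean air the ranges were -0.020 to 0.079 for Nqo1 and -0.10 to 0.040 for Acsm4. With octanoic acid they were -0.056 to 0.14 for Nqo1, -0.10 to 0.35 for Nrp2, -0.15 to 0.024 for Nfib and -0.19 to 0.033 for Nfix. In GFP+ cells Nrp2 ranged from -0.40 to 0.0007 between octanoic acid and clean air. With the replicate number as a block across treatments, 5407 genes passed over all pools, with adjusted p of 0.0204 for Nfia, 0.0366 for Robo2 and 0.0402 for Ncam2 (limma), and no call on a zonal gene changed. Of the 7 lists of related genes, this block changed the counts of 2, retinoic acid and positional signalling (7 higher and 7 lower, against 5 and 7) and ventral receptors (2 and 2, against 2 and 1). The fit that ignores the pools (no replicate block) gave 4739. With 4 pools a group, the intervals for octanoic acid against clean air reached up to 0.62 on either side of the estimate. Larger differences are thus not excluded. For Nfix the interval of the change in the difference between sorts ran to -1.24.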
